A study of Rattus norvegicus with 6 samples.

Results

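Endothelial identity and adhesion genes were followed through RNA-seq of rat aorta. The set was a list of 36 symbols, and all 36 were found among the 24005 gene symbols of the deposited table. It held junction proteins, secreted proteins of the vessel lining, leukocyte adhesion receptors, transcription factors, surface glycoproteins, receptors and intracellular signalling proteins of endothelial cells. The animals were rats with chronic kidney disease (CKD) made by a stepwise subtotal nephrectomy, and all were fed a diet with 1.2% phosphorus, which speeds up calcification of the vessel wall. The exosome group was injected through the tail vein with engineered exosomes (ANCR/E7-EXO) at 10 mg/kg, repeated every 5 days. The saline group received an equal volume of saline for 13 weeks. Each group held 3 libraries. Nephrectomy and diet were shared by both groups, so neither group is a healthy aorta. The sources used here give no strain, sex or age, and nothing says whether a library stands for 1 animal. The p-values therefore refer to the spread between libraries, which may be technical. Whole aorta was sequenced, without sorting of cells.

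Endothelial cells line the lumen of every vessel in a single layer, and in a large artery they are a small share of the wall beside smooth muscle and adventitial cells. ETS factors such as ERG and FLI1, the SOXF factors SOX7, SOX17 and SOX18, and GATA2 with TAL1 keep their gene program on. VE-cadherin, claudin-5 and PECAM-1 seal the contacts between neighbouring cells. When stimulated by inflammatory cytokines, the endothelium displays selectins, on which leukocytes roll, and ICAM-1 and VCAM-1, to which leukocyte integrins attach.

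Expression was given as FPKM, which divides reads by gene length and library total, so levels of different genes can be set side by side. The library totals implied by the FPKM steps ranged from 28063355 to 44561082 reads or read pairs. The smooth muscle gene Myh11 stood between 1463 and 2109 FPKM in the 6 libraries, and every library held Pecam1 and Cdh5, the defining endothelial genes, above 10 FPKM. Over all genes, 1 of 11742 passed limma at an adjusted p of 0.05, which is 0.00852%, and it was not a member.

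Most endothelial genes stood higher in the exosome libraries, but none passed the test. Of the 35 members with a mean of at least 1 FPKM, 29 had a positive log2 difference, against 39.3% of all genes tested. Their median log2 difference was 0.32, and that of all genes was -0.07, on the log2(FPKM + 1) scale. The exosome libraries lay wholly above the saline libraries for 8 of the 35, where 9.40% of all genes did so. They lay wholly below for 0 of the 35, where 11.7% of all genes did so. At an unadjusted p under 0.05, limma gave 10 members higher, against 6.75% of all genes, and 0 lower, against 9.24%. No member passed after adjustment over all genes, where the lowest adjusted p of a member was 0.261 with limma and 0.242 with limma-voom. In bulk tissue, more endothelial cells and more RNA of these genes per cell cannot be told apart. After rescaling to the median of ratios, 31 of the 35 were higher, against 49.0% of all genes, and 11 had groups apart, against 12.2%. After quantile normalization 30 were higher, against 47.6%, and 13 had groups apart, against 11.5%.

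**Figure D1:**
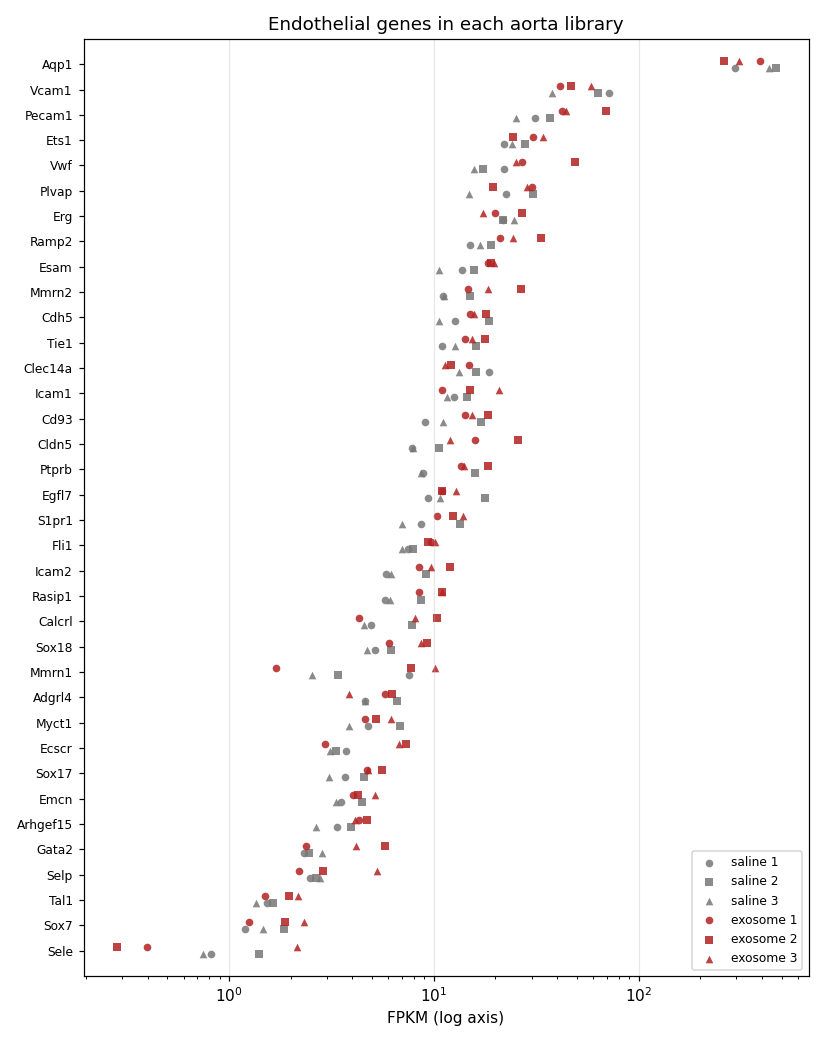
FPKM of each of the 36 genes in each library, on a log axis, ordered by the mean of the 6 libraries, with saline in grey, exosome in red and marker shape for library 1, 2 or 3. Aqp1 stands far above the rest at 262 to 466 FPKM, and Sele is lowest with a mean of 0.963 FPKM.

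The members covered a wide range of levels. Aqp1, the water channel of endothelium and of red cells, had the highest mean over the 6 libraries at 359 FPKM. Whole tissue does not show which cells its reads came from. Vcam1 came next at 53.2 and Pecam1 at 41.5 FPKM. Sele had the lowest mean at 0.963 FPKM and was the member left out of the test by the minimum of 1 FPKM, with Sox7 at 1.66 and Tal1 at 1.69 FPKM next above it. The coefficient of variation over the 6 libraries was highest for Sele (72.3%), Mmrn1 (62.1%) and Cldn5 (51.2%). It was lowest for the ETS factors Fli1 (15.3%) and Erg (15.4%). Values below are given for libraries 1, 2 and 3 of a group in that order.

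All 4 junction genes were higher with exosomes, with a median log2 difference of 0.60, and 3 of them had groups that did not overlap. Over all genes tested, 39.3% were higher and 9.40% were higher and apart. The same shares apply to the counts of the gene groups below, each of which holds few genes. Cldn5, which encodes the main tight junction claudin of endothelium, had the largest difference of all members. It stood at 7.81, 10.6 and 7.91 FPKM with saline and at 15.9, 25.9 and 12.0 FPKM with exosomes. Every exosome library exceeded every saline library, and exosome 2 was farthest out. The means were 8.77 ± 1.57 and 17.9 ± 7.16 FPKM (SD, n = 3 each), a ratio of 2.04. Its log2 difference was 0.90 ± 0.26 (SE) with a limma adjusted p of 0.261. Pecam1, the adhesion molecule CD31 of endothelial junctions, stood at 31.1, 36.8 and 25.3 FPKM with saline and at 42.4, 69.1 and 44.1 FPKM with exosomes. Exosome 2 was again the highest library and saline 3 the lowest. Its ratio of means was 1.67 and its log2 difference 0.70 ± 0.21 (SE), with a limma adjusted p of 0.262. PECAM-1 is carried by platelets and leukocytes as well.

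Esam, an immunoglobulin-like adhesion molecule of endothelial tight junctions, was even across the exosome libraries. Its values were 13.8, 15.7 and 10.6 FPKM with saline and 18.3, 19.1 and 19.6 FPKM with exosomes. The log2 difference was 0.49 ± 0.15 (SE) and the limma adjusted p 0.261. Cdh5, which encodes VE-cadherin of the adherens junction, was the junction gene with overlapping groups. It stood at 12.7, 18.5 and 10.7 FPKM with saline and at 15.1, 17.9 and 15.7 FPKM with exosomes. Saline 2 held the highest value of all 6 libraries, and the limma adjusted p was 0.543.

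The secreted proteins differed among themselves, with 3 of 4 higher and a median log2 difference of 0.47. Vwf, the von Willebrand factor that tethers platelets, stood at 22.0, 17.5 and 15.7 FPKM with saline and at 27.1, 49.0 and 25.3 FPKM with exosomes. The groups did not overlap, with exosome 2 well above its group. The ratio of means was 1.84, and the log2 difference was 0.79 ± 0.25 (SE) with a limma adjusted p of 0.271. Without exosome 2 the log2 difference was 0.50. Mmrn2, a multimerin of the endothelial matrix that binds CD93 and CLEC14A, stood at 11.03, 15.0 and 11.2 FPKM with saline and at 14.6, 26.7 and 18.4 FPKM with exosomes. Only the values of saline 2 and exosome 1 crossed. The log2 difference of Mmrn2 was 0.62 ± 0.22 (SE) with a limma adjusted p of 0.288, and 0.39 without exosome 2. Egfl7, an endothelial secreted factor of the vessel matrix, stood at 9.34, 17.7 and 10.8 FPKM with saline and at 10.9, 10.96 and 12.8 FPKM with exosomes. Its saline values enclosed all its exosome values, and its log2 difference of -0.07 turned positive after rescaling to the median of ratios.

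Promoter sequence was matched by symbol for 20 of the 36 members in the RefSeq table of build GRCr8, in windows of 300 bases from 250 before to 50 after the start of the gene. The table's build was used for these sequences only, since the build of the expression table is not given in the sources used here. The windows of Cldn5, the member with the largest difference, of Mmrn2 and of the receptor gene Tie1 are shown 5′ to 3′ on the gene's strand. Capitals mark matches on either strand to AGGAAG (the core bound by ETS factors), the NF-kB form (GGG, any 2 bases, TT, any base, CC), TATAAA (the TATA box) and GGGCGG (the box of SP and KLF factors).
Cldn5, chr11:95718549-95718848, - strand: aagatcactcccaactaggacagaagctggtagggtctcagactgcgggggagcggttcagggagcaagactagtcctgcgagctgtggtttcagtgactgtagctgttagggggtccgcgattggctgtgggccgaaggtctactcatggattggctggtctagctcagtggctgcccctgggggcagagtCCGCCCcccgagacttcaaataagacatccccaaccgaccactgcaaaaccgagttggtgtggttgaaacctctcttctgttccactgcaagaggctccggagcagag
Mmrn2, chr16:9711955-9712254, + strand: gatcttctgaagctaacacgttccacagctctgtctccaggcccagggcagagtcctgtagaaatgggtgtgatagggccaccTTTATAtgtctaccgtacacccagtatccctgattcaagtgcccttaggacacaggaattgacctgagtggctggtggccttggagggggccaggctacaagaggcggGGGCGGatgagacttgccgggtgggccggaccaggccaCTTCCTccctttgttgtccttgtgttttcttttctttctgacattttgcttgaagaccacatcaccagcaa
Tie1, chr5:137304932-137305231, - strand: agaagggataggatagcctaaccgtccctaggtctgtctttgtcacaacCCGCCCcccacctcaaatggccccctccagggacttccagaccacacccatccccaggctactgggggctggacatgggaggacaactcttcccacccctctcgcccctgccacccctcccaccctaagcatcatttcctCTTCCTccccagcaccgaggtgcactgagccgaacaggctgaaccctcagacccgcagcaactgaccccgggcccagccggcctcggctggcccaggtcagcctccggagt
The 20 members had 23 windows, since Egfl7 and Ecscr had several starts. AGGAAG was found in 11 of the 23, Mmrn2 and Tie1 among them and Cldn5 not, and in 34.5% of all 33469 windows of the table. GGGCGG was found in 9 of the 23, including those of Cldn5, Mmrn2 and Tie1, and in 33.1% of all windows. In Mmrn2 the AGGAAG match began 21 bases before the start and in Tie1 61 bases before it. These matches describe the letters only and do not show that a factor binds.

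Of the 4 tested leukocyte adhesion genes 3 were higher, with a median log2 difference of 0.23, and none had groups apart. Vcam1, the ligand of the integrin VLA-4, stood at 71.8, 63.1 and 37.6 FPKM with saline and at 41.2, 46.7 and 58.6 FPKM with exosomes. The saline values spanned all the exosome values. The log2 difference was -0.20 ± 0.25 (SE) with a limma adjusted p of 0.690, and it ranged from -0.47 without saline 3 to -0.013 without saline 1. VCAM-1 is made by smooth muscle cells as well as endothelium. Icam1, the inducible ligand of leukocyte beta-2 integrins, stood at 12.5, 14.5 and 11.6 FPKM with saline and at 10.9, 15.1 and 20.8 FPKM with exosomes. Exosome 1 was the lowest library and exosome 3 the highest, so the exosome group enclosed the saline group. Its log2 difference was 0.22 ± 0.22 (SE), limma adjusted p = 0.608, and it became 0.0021 without exosome 3 and 0.44 without exosome 1. Icam2, the constitutive endothelial relative of ICAM-1, stood at 5.86, 9.14 and 6.19 FPKM with saline and at 8.43, 12.0 and 9.74 FPKM with exosomes. Here only saline 2 reached into the exosome range. For Icam2 the log2 difference was 0.46 ± 0.19 (SE), limma adjusted p = 0.307.

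The selectins were low. Selp, which encodes P-selectin of endothelial and platelet granules, stood at 2.49, 2.66 and 2.77 FPKM with saline and at 2.21, 2.89 and 5.28 FPKM with exosomes. The high value of exosome 3 set its log2 difference of 0.23 ± 0.25 (SE), limma adjusted p = 0.630, which became -0.043 without that library. Sele, the cytokine-induced E-selectin, stood at 0.814, 1.40 and 0.747 FPKM with saline and at 0.397, 0.282 and 2.14 FPKM with exosomes. It rested on 29 to 349 reads per library, and exosome 2 and 3 were its lowest and highest libraries. For Icam1, Selp and Sele alike, exosome 3 held the highest value.

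The promoters of the inducible genes Icam1 and Vcam1 are shown because the best-known control of both lies close to the start, with the same letters in capitals.
Icam1, chr8:27829595-27829894, + strand: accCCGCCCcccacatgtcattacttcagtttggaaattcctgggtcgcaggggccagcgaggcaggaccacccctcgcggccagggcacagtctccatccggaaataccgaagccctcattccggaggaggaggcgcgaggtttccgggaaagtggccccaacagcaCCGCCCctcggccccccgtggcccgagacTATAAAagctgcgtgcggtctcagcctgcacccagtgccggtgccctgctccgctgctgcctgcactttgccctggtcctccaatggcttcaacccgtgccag
Vcam1, chr2:206742734-206743033, - strand: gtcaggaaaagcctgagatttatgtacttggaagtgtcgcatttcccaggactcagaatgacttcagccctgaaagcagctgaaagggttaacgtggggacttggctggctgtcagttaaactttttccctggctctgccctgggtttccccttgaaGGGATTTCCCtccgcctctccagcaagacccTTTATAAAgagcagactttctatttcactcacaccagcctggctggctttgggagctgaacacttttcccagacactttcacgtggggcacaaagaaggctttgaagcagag
The NF-kB form was found in Vcam1 alone of the 23 windows, beginning 93 bases before the start, and in 5.00% of all windows. TATAAA was found in 6 of the 23, both of these among them, and in 14.2% of all windows. In Vcam1 its matches on both strands overlap each other. The search asked for exact letters, so NF-kB sites spelled otherwise were not counted and stay in lower case. Stretches that depart from the form include tggaaattcc in the Icam1 window and gggtttcccc in the Vcam1 window. The absence of the form in the Icam1 window therefore does not show that it holds no NF-kB site.

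On the leukocyte side, 6 of 11 listed genes of integrins and other ligands of adhesion receptors had a mean of at least 1 FPKM. Of these 5 were higher and 1 lower with exosomes, where 39.3% of all genes tested were higher. None passed limma or had groups apart, where 9.40% of all genes were higher and apart and 11.7% lower and apart. Itgb1, among the 5, stood at 733, 567 and 480 FPKM with saline and at 725, 577 and 593 FPKM with exosomes. That is far above the other tested genes of the list, and whole tissue does not show which cells it came from. Cd44, a receptor for hyaluronan that also binds E-selectin, stood at 4.56, 5.62 and 4.31 FPKM with saline and at 7.17, 4.91 and 18.6 FPKM with exosomes, with exosome 3 far above the rest. Itgb2, the beta-2 integrin chain of all leukocytes, stood at 1.59, 1.79 and 1.39 FPKM with saline and at 1.68, 1.34 and 2.68 FPKM with exosomes. Of 8 listed cytokines that act on these genes, 1 reached the minimum, Tnfsf10, with a log2 difference of -0.16. Ifng was at 0 in all libraries. Il1b stood at 0.794, 0.462 and 0.917 FPKM with saline and at 0.221, 0.814 and 1.90 FPKM with exosomes. Il6 stood at 0.0570, 0.0645 and 0 FPKM with saline and at 0.251, 0.341 and 0.365 FPKM with exosomes. The groups of Il6 were apart, at levels far under the minimum and not tested, and no other listed cytokine had groups apart.

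Of the 8 transcription factors, 7 were higher and 2 of these had groups apart, with a median log2 difference of 0.30. Over all genes tested, 39.3% were higher and 9.40% were higher and apart. Fli1, an ETS factor of endothelium and blood cells, was the steadiest member. It stood at 7.47, 7.87 and 6.98 FPKM with saline and at 9.64, 9.39 and 10.2 FPKM with exosomes. The exosome libraries lay above the saline libraries with little spread in either group, and the ratio of means was 1.31. Its log2 difference was 0.35 ± 0.11 (SE), limma adjusted p = 0.268. Sox17, the SOXF factor of arterial endothelium, stood at 3.69, 4.55 and 3.07 FPKM with saline and at 4.72, 5.60 and 4.77 FPKM with exosomes. The gap between its groups was narrow, and its log2 difference was 0.35 ± 0.16 (SE), limma adjusted p = 0.326. Sox18 stood at 5.15, 6.20 and 4.72 FPKM with saline and at 6.04, 9.29 and 8.62 FPKM with exosomes, with exosome 1 just under saline 2 (log2 difference 0.49 ± 0.18 SE). Sox7, the third of the SOXF family, stood at 1.20, 1.85 and 1.46 FPKM with saline and at 1.25, 1.87 and 2.33 FPKM with exosomes, and its groups overlapped broadly.

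Erg, the ETS factor most closely tied to endothelial identity, was the lower one of the 8. It stood at 21.8, 21.8 and 24.7 FPKM with saline and at 19.8, 26.9 and 17.4 FPKM with exosomes. The exosome libraries enclosed the saline libraries, and the log2 difference was -0.11 ± 0.16 (SE). Ets1, which lymphocytes also express, stood at 22.1, 28.0 and 24.0 FPKM with saline and at 30.3, 24.2 and 34.3 FPKM with exosomes. Gata2, a zinc finger factor of endothelium and blood stem cells, stood at 2.33, 2.46 and 2.85 FPKM with saline and at 2.38, 5.77 and 4.17 FPKM with exosomes. Tal1, its basic helix-loop-helix partner, stood at 1.53, 1.65 and 1.35 FPKM with saline and at 1.50, 1.95 and 2.18 FPKM with exosomes. For both Gata2 and Tal1, exosome 1 lay within the saline range while exosome 2 and 3 lay above it.

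Of the 6 surface glycoproteins and channels 4 were higher and 2 lower, with a median log2 difference of 0.21, and none had groups apart. Ecscr, an endothelial chemotaxis regulator, stood at 3.74, 3.34 and 3.10 FPKM with saline and at 2.93, 7.28 and 6.76 FPKM with exosomes, so exosome 1 was the lowest library and the other two were the highest. Cd93, a C-type lectin receptor for multimerin-2, stood at 9.08, 16.9 and 11.1 FPKM with saline and at 14.2, 18.3 and 15.4 FPKM with exosomes. Saline 2 again reached into the exosome range. Its paralog Clec14a went the other way, at 18.7, 16.0 and 13.3 FPKM with saline and at 14.9, 12.1 and 11.3 FPKM with exosomes. Its log2 difference was -0.30 ± 0.16 (SE), limma adjusted p = 0.374, and its groups overlapped. Emcn, an endomucin that keeps leukocytes off resting endothelium, stood at 3.53, 4.47 and 3.34 FPKM with saline and at 4.03, 4.25 and 5.14 FPKM with exosomes. Plvap, which forms the diaphragms of fenestrae and caveolae, stood at 22.6, 30.7 and 14.9 FPKM with saline and at 30.1, 19.5 and 28.5 FPKM with exosomes, with no order between the groups. Aqp1 stood at 294, 466 and 432 FPKM with saline and at 392, 262 and 310 FPKM with exosomes. Its log2 difference was -0.30 ± 0.22 (SE), limma adjusted p = 0.497, and saline 1 lay within the exosome range.

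Of the 6 receptors 5 were higher, with a median log2 difference of 0.33, and Ramp2 alone had groups apart. Over all genes tested, 39.3% were higher and 9.40% were higher and apart. RAMP2 is the partner protein that turns the calcitonin-receptor-like receptor into a receptor for adrenomedullin. It stood at 14.9, 19.1 and 16.8 FPKM with saline and at 21.0, 33.2 and 24.5 FPKM with exosomes. Its ratio of means was 1.55, and its log2 difference was 0.59 ± 0.18 (SE), limma adjusted p = 0.261. Calcrl, the receptor itself, stood at 4.95, 7.79 and 4.54 FPKM with saline and at 4.32, 10.4 and 8.06 FPKM with exosomes. Exosome 1 was the lowest of all libraries for Calcrl, so the pair did not share an order. Of 7 listed genes of the other partner proteins, the calcitonin receptor and their ligands, 2 reached the minimum and none passed. Ramp1, the partner that makes a receptor for CGRP, stood at 84.1, 65.0 and 70.5 FPKM with saline and at 66.9, 55.8 and 50.2 FPKM with exosomes, with a log2 difference of -0.34 and a limma adjusted p of 0.311. Adm, the adrenomedullin gene, stood at 4.02, 5.06 and 4.07 FPKM with saline and at 5.52, 4.41 and 5.78 FPKM with exosomes.

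The remaining receptors overlapped. Tie1, an orphan receptor tyrosine kinase of the angiopoietin system, stood at 11.01, 16.1 and 12.6 FPKM with saline and at 14.1, 17.8 and 15.4 FPKM with exosomes. Ptprb, the phosphatase VE-PTP that binds TIE2 and VE-cadherin, stood at 8.88, 15.8 and 8.68 FPKM with saline and at 13.6, 18.3 and 14.0 FPKM with exosomes. For both, saline 1 and 3 lay below all exosome libraries and saline 2 did not. S1pr1, the sphingosine-1-phosphate receptor that steadies the endothelial barrier, stood at 8.62, 13.4 and 7.01 FPKM with saline and at 10.3, 12.4 and 13.9 FPKM with exosomes, in the same arrangement. Adgrl4, an adhesion G-protein-coupled receptor, stood at 4.61, 6.58 and 4.61 FPKM with saline and at 5.79, 6.23 and 3.85 FPKM with exosomes, with means of 5.27 ± 1.14 FPKM with saline and 5.29 ± 1.27 FPKM with exosomes (SD, n = 3 each). It was the receptor counted as lower, by less than 0.01 on the log2 scale, and it was higher under each rescaling of the libraries.

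All 3 intracellular signalling genes were higher, with a median log2 difference of 0.32. Over all genes tested, 39.3% were higher and 9.40% were higher and apart. Arhgef15, a guanine nucleotide exchange factor, had groups apart. It stood at 3.36, 3.93 and 2.67 FPKM with saline and at 4.29, 4.69 and 4.11 FPKM with exosomes. This gave a log2 difference of 0.32 ± 0.15 (SE), limma adjusted p = 0.339. Rasip1, a Ras-interacting protein needed for vessel lumens, stood at 5.80, 8.69 and 6.13 FPKM with saline and at 8.46, 10.95 and 11.002 FPKM with exosomes. Saline 2 lay just above exosome 1, and the log2 difference was 0.51 ± 0.18 (SE), limma adjusted p = 0.284. Myct1, a membrane protein of endothelium, stood at 4.79, 6.81 and 3.86 FPKM with saline and at 4.63, 5.23 and 6.20 FPKM with exosomes, with broad overlap.

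**Figure D2:**
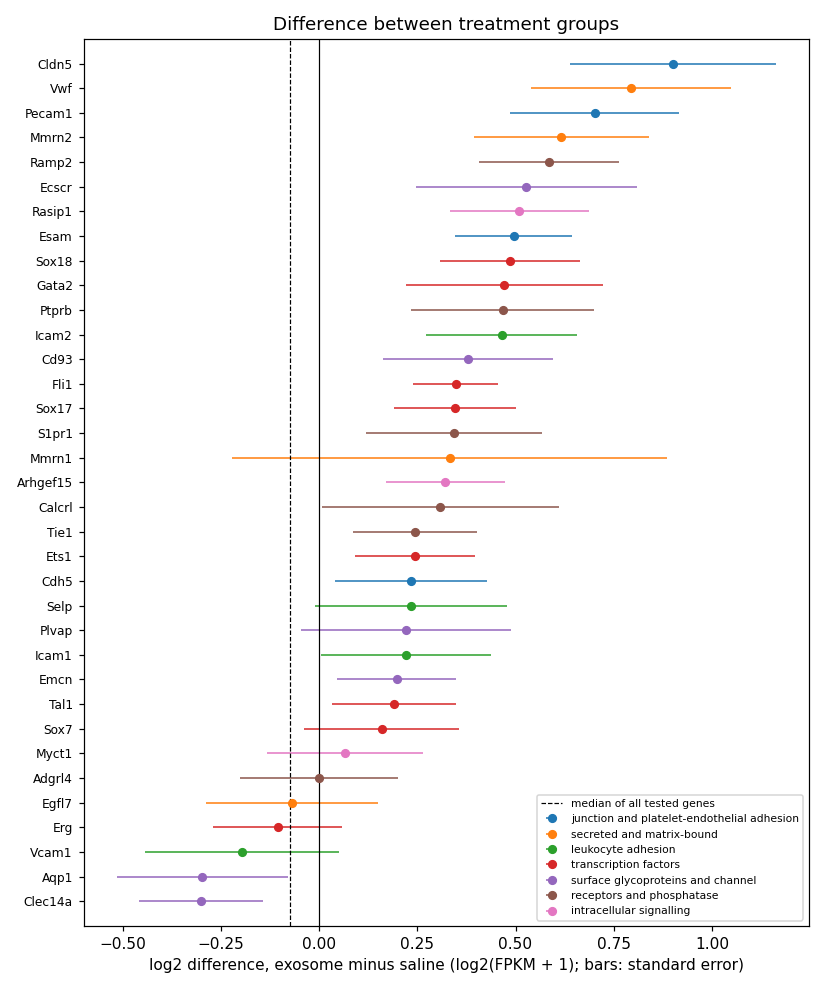
Log2 difference between exosome and saline libraries for the 35 tested genes, with limma's standard error as bars and colours for the gene group, where the dashed line is the median of all genes tested. Cldn5 is at the top with 0.90, and Clec14a and Aqp1 are at the bottom with -0.30 each.

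The libraries within a group were uneven. Exosome 2 held the highest value of 16 of the 36 members and exosome 3 that of 12, where they held the highest value of 20.6% and 16.1% of all genes tested. Exosome 1 held the highest value of 0 members, and of only 6.50% of all genes. Saline 3 held the lowest value of 15 members and saline 1 that of 11, against 10.5% and 15.3% of all genes. Saline 2 was the highest saline library for 27 of the 35 tested members, and exosome 1 was the lowest exosome library for 25. For 12 of the 27 tested members with overlapping groups, saline 2 was the only saline library to reach into the exosome range. The counts of 27, 25 and 12 members were not made over all genes, so they are not shown to be particular to the members. Without saline 2, 20 of the 35 had exosome libraries wholly above saline libraries, against 12.6% of all genes. Without exosome 1, 20 did, against 13.1%. With fewer libraries groups separate more easily, for members as for all genes. Leaving out 1 library moved the log2 difference of 26 of the 35 by more than 1.5 times. The other 9, which stayed within that, were Cldn5, Pecam1, Esam, Icam2, Fli1, Sox17, Sox18, Ramp2 and Rasip1. The move was taken as a ratio to the log2 difference with all libraries, so small differences exceed 1.5 times easily. Adgrl4 and Egfl7 did so for each of the 6 libraries. This count was not made over all genes.

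**Figure D3:**
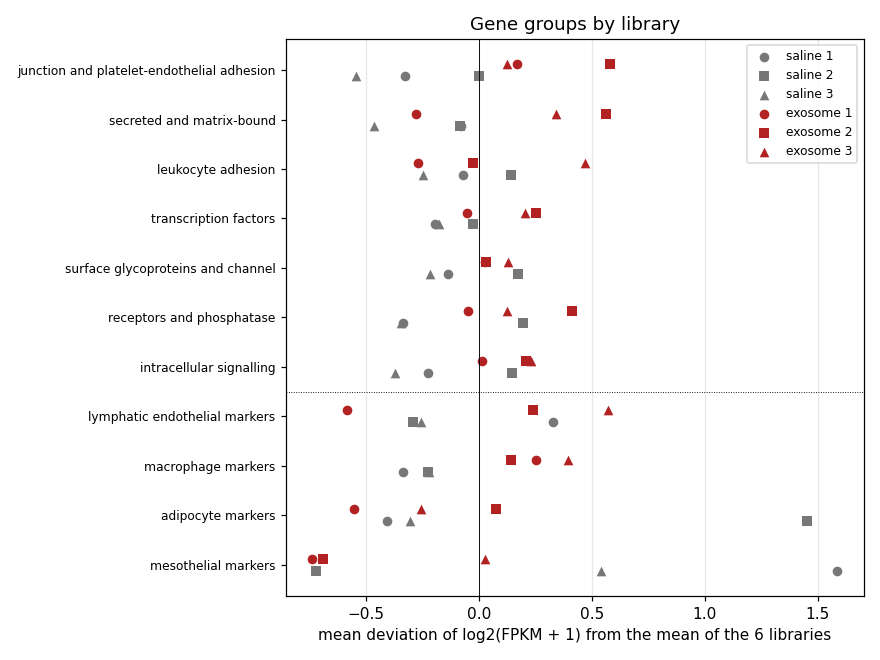
Mean deviation of log2(FPKM + 1) from the mean of the 6 libraries for each group of members (above the dotted line) and for 4 lists of markers of other cells (below it), with 1 point per library. Junction genes range from -0.54 in saline 3 to 0.58 in exosome 2, adipocyte markers reach 1.45 in saline 2, and mesothelial markers reach 1.59 in saline 1.

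Markers of other cells moved between the libraries too. All 6 adipocyte markers were lower with exosomes without passing, and their summed level was 318, 1099 and 352 FPKM with saline and 356, 627 and 414 FPKM with exosomes, none of them at 0. Saline 1 and 3 lay below every exosome library in this sum, and the high sum was that of saline 2, the saline library in which most members were highest. All 6 macrophage markers were higher with exosomes, 4 with groups apart and none past limma, where 39.3% of all genes were higher and 9.40% higher and apart. Their sums were 62.8 to 72.4 FPKM with saline and 89.6 to 107 FPKM with exosomes. Macrophages can carry PECAM-1, ICAM-1 and FLI1. The 6 smooth muscle markers split into 3 higher and 3 lower, with sums of 13468 to 21219 FPKM with saline and 14907 to 20982 FPKM with exosomes. The 3 tested mesothelial markers were lower, with sums of 0.348 to 32.2 FPKM with saline and 0.279 to 5.33 FPKM with exosomes. Platelet and megakaryocyte markers, which bear on Vwf and Selp, had 1 of 2 tested genes higher, with sums of 15.5 to 40.8 FPKM with saline and 20.6 to 26.9 FPKM with exosomes, and Gp1bb at 0 throughout. Of the red cell markers, which bear on Aqp1, all 4 tested were lower. Their sums were 1023, 363 and 790 FPKM with saline and 450, 219 and 656 FPKM with exosomes. Among the saline libraries, saline 1 had the highest sum and the lowest Aqp1, and saline 2 the lowest sum and the highest Aqp1. Exosome 2 was lowest of all libraries in both. Fibroblast markers had 1 of 6 higher, with sums of 2276 to 3218 FPKM with saline and 2322 to 2782 FPKM with exosomes. Schwann cell markers had 2 of 4 tested genes higher, and no lymphocyte marker reached the minimum. The part of these cells in the differences of the members was not tested.

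Mmrn1, the multimerin of platelets and of lymphatic endothelium, followed an order of its own. It stood at 7.54, 3.39 and 2.53 FPKM with saline and at 1.70, 7.78 and 10.1 FPKM with exosomes. Saline 1, exosome 2 and exosome 3 were high and the other libraries low, so the split cut across the treatment. The log2 difference was 0.33 ± 0.55 (SE), limma adjusted p = 0.765, with the largest standard error of the members. The lymphatic marker Ccl21, a chemokine, stood at 38.6, 20.2 and 26.4 FPKM with saline and at 5.76, 40.8 and 52.6 FPKM with exosomes. Prox1, the transcription factor that defines lymphatic endothelium, stood at 0.348, 0.145 and 0.113 FPKM with saline and at 0.0861, 0.417 and 0.717 FPKM with exosomes. The same libraries were high for Mmrn1, Ccl21 and Prox1. The 6 lymphatic markers summed to 61.7, 34.5 and 39.3 FPKM with saline and to 21.1, 61.4 and 79.6 FPKM with exosomes, and of the 4 tested 2 were higher and 2 lower. Lyve1, which macrophages of the vessel wall also carry, kept the groups apart instead, at 7.98, 8.31 and 6.75 FPKM with saline and 8.93, 11.3 and 14.9 FPKM with exosomes.

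Levels were also set against Cdh5 within each library, which removes the library total from the comparison. Cdh5 was chosen for this after its values were seen. Of the other members, Pecam1, Cldn5, Ptprb and Sox17 had higher ratios in every exosome library than in every saline library, and 0.826% of all genes did so. No member had groups apart in the lower direction, where 16.5% of all genes did. Cdh5 is itself a member and was highest in saline 2, as most members were among the saline libraries. Dividing by it evens out that library for members of the same order, and Ptprb, whose groups overlapped in FPKM, came apart. The shares over all genes are therefore no like background for the members. Pecam1 stood at 2.45, 1.98 and 2.37 times Cdh5 with saline and at 2.82, 3.85 and 2.80 times with exosomes. The ratio of Cldn5 was 0.614, 0.571 and 0.743 with saline and 1.06, 1.44 and 0.761 with exosomes, where exosome 3 lay just above saline 3. That of Ptprb went from 0.699, 0.854 and 0.814 to 0.905, 1.02 and 0.891, and that of Sox17 from 0.291, 0.246 and 0.288 to 0.313, 0.313 and 0.303. Clec14a lay at 1.47, 0.865 and 1.25 times Cdh5 with saline and at 0.989, 0.676 and 0.719 times with exosomes, with overlap.

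**Figure D4:**
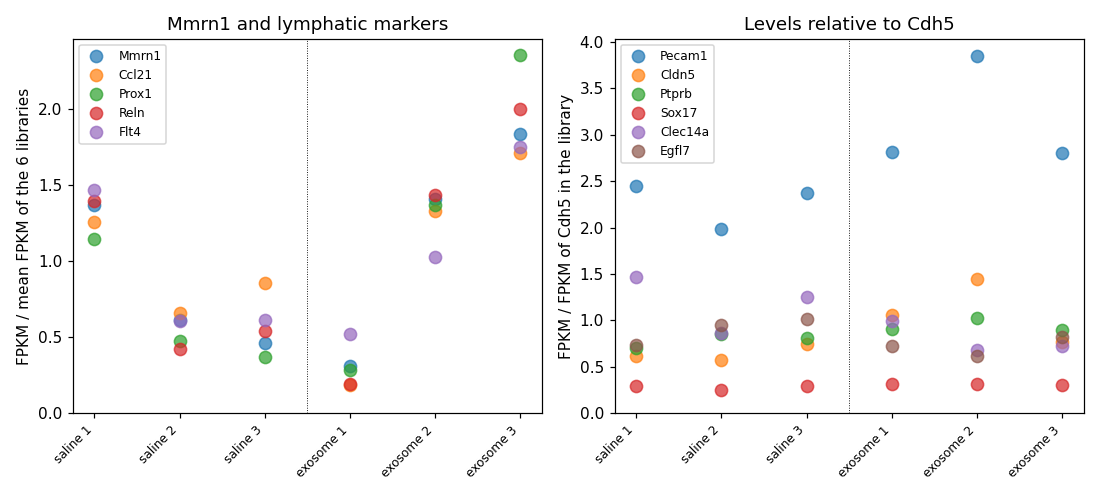
Left, FPKM of Mmrn1 and of 4 lymphatic markers in each library, divided by the gene's mean over the 6 libraries; right, FPKM of 6 members divided by that of Cdh5 in the same library. Saline 1, exosome 2 and exosome 3 are high for all genes on the left, and Pecam1 on the right stands at 1.98 to 2.45 with saline and 2.80 to 3.85 with exosomes.

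Other genes of endothelium, from a list of 30 that shares no symbol with the members, were looked at in the same way. Of 28 tested, 18 were higher and 10 lower, against 39.3% of all genes higher, with a median log2 difference of 0.16, and none passed limma. In 4 the exosome libraries lay wholly above the saline libraries, against 9.40% of all genes, and in 0 wholly below, against 11.7%. Nos3, the endothelial nitric oxide synthase, stood at 6.09, 6.87 and 4.72 FPKM with saline and at 9.49, 12.9 and 11.9 FPKM with exosomes. Shank3, a scaffold protein, stood at 3.92, 4.52 and 4.04 FPKM with saline and at 5.40, 6.92 and 7.39 FPKM with exosomes. In both genes the groups were apart, at limma adjusted p-values of 0.237 and 0.255. She, an adaptor protein, and Gpihbp1, which carries lipoprotein lipase across capillary endothelium, were the next by unadjusted p, with log2 differences of 0.64 and 0.74. The lowest of the list were Nostrin, which regulates the traffic of the nitric oxide synthase, at -0.54, and the lipid phosphatase gene Plpp3 at -0.43. Angpt2 at -0.42, Kdr at -0.29 and Thbd at -0.28 were also among the 10 lower genes, with overlapping groups.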

How the data were processed

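RNA from aorta was sequenced in 6 libraries, 3 per group by the treatment label. Per the labels' protocols the SMARTER mRNA-seq kit was used. The authors deposited FPKM values. The submitters' processing notes name DESeq2 1.28.1 without a role. Names of the aligner, counter, strand setting, build and annotation were not given in the sources used here, and reads of overlapping genes and paralogs could not be separated.

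Whole reads were recovered from the FPKM steps for all 18430 genes above 0, within 0.00064 reads. Between 98.6% and 98.9% of the implied totals were recovered on genes. The reads behind each member set its counting error, which weighs most on those with few reads (from 29 in Sele, 119 in Emcn, 127 in Ecscr, 132 in Sox7 and 194 in Tal1 in the lowest library). No pair of libraries of a group was a duplicate, with a chi-square of at least 40.7 per gene.

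Log2(FPKM + 1) was tested two-sided with limma 3.58.1 (R 4.3.3, trended moderation) in 11742 genes whose mean reached 1 FPKM, and p-values were adjusted by Benjamini-Hochberg over all of them at 0.05. Log2 differences on this scale understate the change of low genes. The fit was tested on simulated data. Alternatives were a pseudocount of 0.1, no filter, a mean FPKM of at least 5, rescaling to equal sums (TPM), the median of ratios, quantile normalization, robust moderation, a replicate block, limma-voom on recovered reads, and each library left out. Promoter motifs and the comparison with Cdh5 were chosen after values were seen. All members are named with their values, and other lists by counts and up to 4 genes with the smallest p. To these, genes chosen after their values were seen were added (Itgb2, Itgb1, Il1b, Il6, Nostrin, Plpp3, Angpt2, Kdr, Thbd, Ccl21, Prox1). The members and lists were chosen with earlier results of these data known. Figures used Python 3.11.15 and matplotlib 3.10.9.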

Additional observations from a re-analysis of the deposited data

How the results depend on the processing

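Under all 15 alternatives no member passed the adjusted threshold, and the lowest adjusted p of a member was 0.108, for Cldn5 without exosome 2. Of the 35 tested, 28 members kept their direction throughout. The number of genes past the threshold over all genes was 2 under quantile normalization and 0 to 9 with a library left out (9 without saline 1, 4 without exosome 2, 2 without exosome 3, and 0 without saline 3 and without exosome 1). Members with groups that did not overlap numbered 13 under quantile normalization (11.5% of all genes higher and apart). With a library left out they numbered 8 to 21 in both directions together, where 11.7% to 15.4% of all genes were higher and apart. Both large counts came without saline 2 (20) and without exosome 1 (21, of which 1 lower). Members lower and apart also numbered 1 without saline 1, 2 without saline 3 and 1 without exosome 2. The share of all genes lower and apart was not counted with a library left out. The log2 difference of Adgrl4 turned to 0.032 with equal sums, 0.062 with the median of ratios and 0.11 with quantile normalization, and that of Egfl7 to 0.0028 with the median of ratios. With a library left out, the log2 difference ranged from -0.11 to 0.18 for Adgrl4, -0.24 to 0.19 for Egfl7, -0.28 to 0.024 for Erg, -0.066 to 0.96 for Mmrn1, -0.090 to 0.25 for Myct1, -0.040 to 0.46 for Plvap and -0.043 to 0.44 for Selp. The cause was not tested.

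Same-numbered libraries did not deviate together, with correlations over genes of 0.068, 0.096 and -0.17 for numbers 1, 2 and 3, so the numbers were not taken as pairs. Not every library correlated best with its own number. With a replicate block, which cannot alter log2 differences or overlaps in this balanced design, 1 gene passed over all genes and 0 members did.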
